A study of Mus musculus with 34 samples.

Results

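Transcripts that mark T cells and natural killer (NK) cells were read in macrophage cultures that had been started from mouse bone marrow and fed M-CSF, the factor on which macrophages depend. The 10 transcripts were Lck, Cd3e, Cd3g, Il2rb, Ncr1, Klrb1c, Nkg7, Gzma, Gzmb and Prf1, found by gene symbol among the 52550 genes of the main count table. The smaller table, called batch 1 in the labels, held 9 of them among 25498 genes and had no row for Gzma. In the main set the 10 transcripts together took between 7.19 and 39.7 CPM (counts scaled to the library's size) in a library, so each one is given as the count in every library of a group. Counts of 10 or more in at least 3 libraries of the main set, or 2 of batch 1, were needed for a test. All 10 transcripts passed in the main set, and Lck, Il2rb and Gzmb passed in batch 1.

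The mice were 10 to 14 weeks old and had 1 of 4 genotypes, all of them with the Vav-Cre recombinase, which acts in blood-forming cells and their descendants. Tet2KO mice were Tet2 fl/fl, Dnmt3aKO mice were Dnmt3a fl/fl, Jak2VF mice were Jak2 V617F/WT, and WT mice had Vav-Cre alone. Vav-Cre is not limited to macrophages and acts in lymphocytes too. The marrow was cultured for 6 days with M-CSF at 10 ng/ml. After a rest of 24 h it received low-density lipoprotein (LDL, 200 mg/dL) or vehicle for another 24 h. The main set had 24 libraries, 3 for each genotype and treatment, with total counts from 24105237 to 43904761. Batch 1 had 10 libraries, from Tet2KO (2 with LDL and 3 with vehicle) and WT (2 with LDL and 3 with vehicle), with totals from 15171143 to 44449473. Whether replicate libraries stand for different mice is not stated in the labels, so p-values measure the spread between these libraries, which may be technical.

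In Dnmt3aKO with vehicle the Dnmt3a transcript stood at 32.6 to 36.6 CPM, below the 54.5 to 71.2 CPM of WT. Tet2 was not lower in the libraries labelled Tet2KO, at 32.8 to 38.6 CPM against 19.8 to 32.1 CPM in WT with vehicle, and a whole-gene count does not single out the floxed part, so this does not check the label. Tet2KO below therefore means the libraries labelled so. The 8 macrophage markers summed to between 19072 and 33364 CPM in the main set and none was at 0 in any library. A group of 4 stromal transcripts (Col1a1, Col1a2, Col3a1, Dcn) summed to between 7461 and 15873 CPM in the main set. Gfap, an astrocyte transcript, had 112 counts in Tet2KO LDL replicate 3 and 83 in WT LDL replicate 3, against 4 to 18 in the other 22 libraries. Results with LDL are therefore also given without that pair of libraries where the call changes.

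T cells recognise antigen through a receptor whose signal passes through the CD3 chains to the kinase LCK, whereas NK cells read activating and inhibitory receptors such as NKp46 and the NK1.1 family. Both kinds of cell kill by releasing granules that hold perforin, which opens the target membrane, and granzymes, the proteases that enter through it. M-CSF cultures select for macrophages, and lymphocytes are a known minor carry-over from marrow. In bulk RNA fewer cells of a type and less RNA per cell cannot be told apart.

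The promoters of 9 of the 10 genes were found in a RefSeq table (GRCm38.p6, 250 bases before to 50 after the start), and those of both NK receptors and both granzymes are shown because they stand for the NK receptors and the effectors of the comparisons below. Capitals mark TGTGGT or its complement ACCACA, the core bound by RUNX factors, which act in T and NK cell development. All are 5′ to 3′ on the strand of the gene.
Ncr1, chr7:4337465-4337764, plus strand: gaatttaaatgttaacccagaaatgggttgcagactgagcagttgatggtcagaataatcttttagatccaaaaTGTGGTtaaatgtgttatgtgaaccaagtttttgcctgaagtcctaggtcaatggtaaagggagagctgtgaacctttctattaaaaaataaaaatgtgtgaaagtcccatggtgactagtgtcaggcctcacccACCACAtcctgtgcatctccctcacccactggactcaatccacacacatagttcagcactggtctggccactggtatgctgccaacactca
Klrb1c, chr6:128788592-128788891, minus strand: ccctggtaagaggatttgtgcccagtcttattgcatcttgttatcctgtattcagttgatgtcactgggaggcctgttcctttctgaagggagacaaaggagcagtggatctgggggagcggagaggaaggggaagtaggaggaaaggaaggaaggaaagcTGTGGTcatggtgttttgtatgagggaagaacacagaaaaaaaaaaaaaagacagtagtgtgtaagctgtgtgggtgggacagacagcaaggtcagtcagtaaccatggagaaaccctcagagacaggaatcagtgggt
Gzma, chr13:113100932-113101231, minus strand: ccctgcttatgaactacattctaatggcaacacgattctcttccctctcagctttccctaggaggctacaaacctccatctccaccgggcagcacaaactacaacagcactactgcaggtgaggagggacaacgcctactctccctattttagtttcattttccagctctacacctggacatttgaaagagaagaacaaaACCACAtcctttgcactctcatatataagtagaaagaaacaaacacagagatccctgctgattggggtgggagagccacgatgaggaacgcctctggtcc
Gzmb, chr14:56262285-56262584, minus strand: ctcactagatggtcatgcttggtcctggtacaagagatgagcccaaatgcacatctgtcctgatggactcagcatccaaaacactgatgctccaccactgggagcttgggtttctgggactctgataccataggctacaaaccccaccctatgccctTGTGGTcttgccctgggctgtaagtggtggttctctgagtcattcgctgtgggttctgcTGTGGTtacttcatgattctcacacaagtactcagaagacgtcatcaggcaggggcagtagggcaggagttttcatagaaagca
The motif, on either strand and with no other motif searched, was present in the promoters of 7 of the 9 genes, absent from those of Cd3e and Cd3g, and present in 16.8% of the 32851 promoters of the table. Of the 2 entries for Lck, 1 held it. CG pairs, the sites that DNMT3A and TET2 act on, numbered 0 in the Ncr1 promoter, 1 in Klrb1c, 2 in Gzmb and 5 in Gzma, and at most 8, in Cd3e. The median over the table was 7. These are descriptions of the letters in the window, and methylation was not measured.

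The annotated genes lie at chr4:129548344-129573641 (Lck), chr9:44998740-45009627 (Cd3e), chr9:44969572-44980431 (Cd3g), chr15:78479256-78495271 (Il2rb), chr7:4337724-4345164 (Ncr1), chr6:128778485-128789215 (Klrb1c), chr7:43437073-43438249 (Nkg7), chr13:113093825-113100981 (Gzma), chr14:56258838-56262260 (Gzmb) and chr10:61297833-61304680 (Prf1), in GRCm38. Genes on the same strand overlap Cd3e (Gm48720), Klrb1c (Gm44511) and Lck (Mir8119), and reads of these pairs may be shared whatever the strand handling. Cd3e also overlaps an antisense gene (Gm48719). Strand handling in the counting is not given in the sources used here, so reads of that pair may be shared too. Granzyme genes are also close relatives of each other, and reads could be split between them. The promoter windows above follow the RefSeq starts, which can differ from these coordinates. The Gzmb window lies wholly outside the gene as given here, and the Klrb1c window wholly inside it.

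Per kilobase of exon, the most abundant of the 10 in Tet2KO with vehicle were Il2rb at 3.59 and Nkg7 at 3.50 CPM per kb, which did not separate beyond their spread, followed by Ncr1 at 2.15, Lck at 1.97 and Gzmb at 1.84. Prf1 was lowest at 0.194 CPM per kb. In WT with vehicle the order was led by Nkg7 at 1.40, Il2rb at 1.27 and Gzmb at 1.19 CPM per kb, and Gzma was lowest at 0.0722. Across the 8 main groups, 8 of the 10 transcripts had their highest mean in Tet2KO with vehicle. The exceptions were Cd3g, highest by a small margin in Tet2KO with LDL, and Gzmb, highest in WT with LDL. The share of all genes with their highest mean in Tet2KO with vehicle was not counted. The 10 were chosen with earlier results of these data known, so this is a description.

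**Figure D1:**
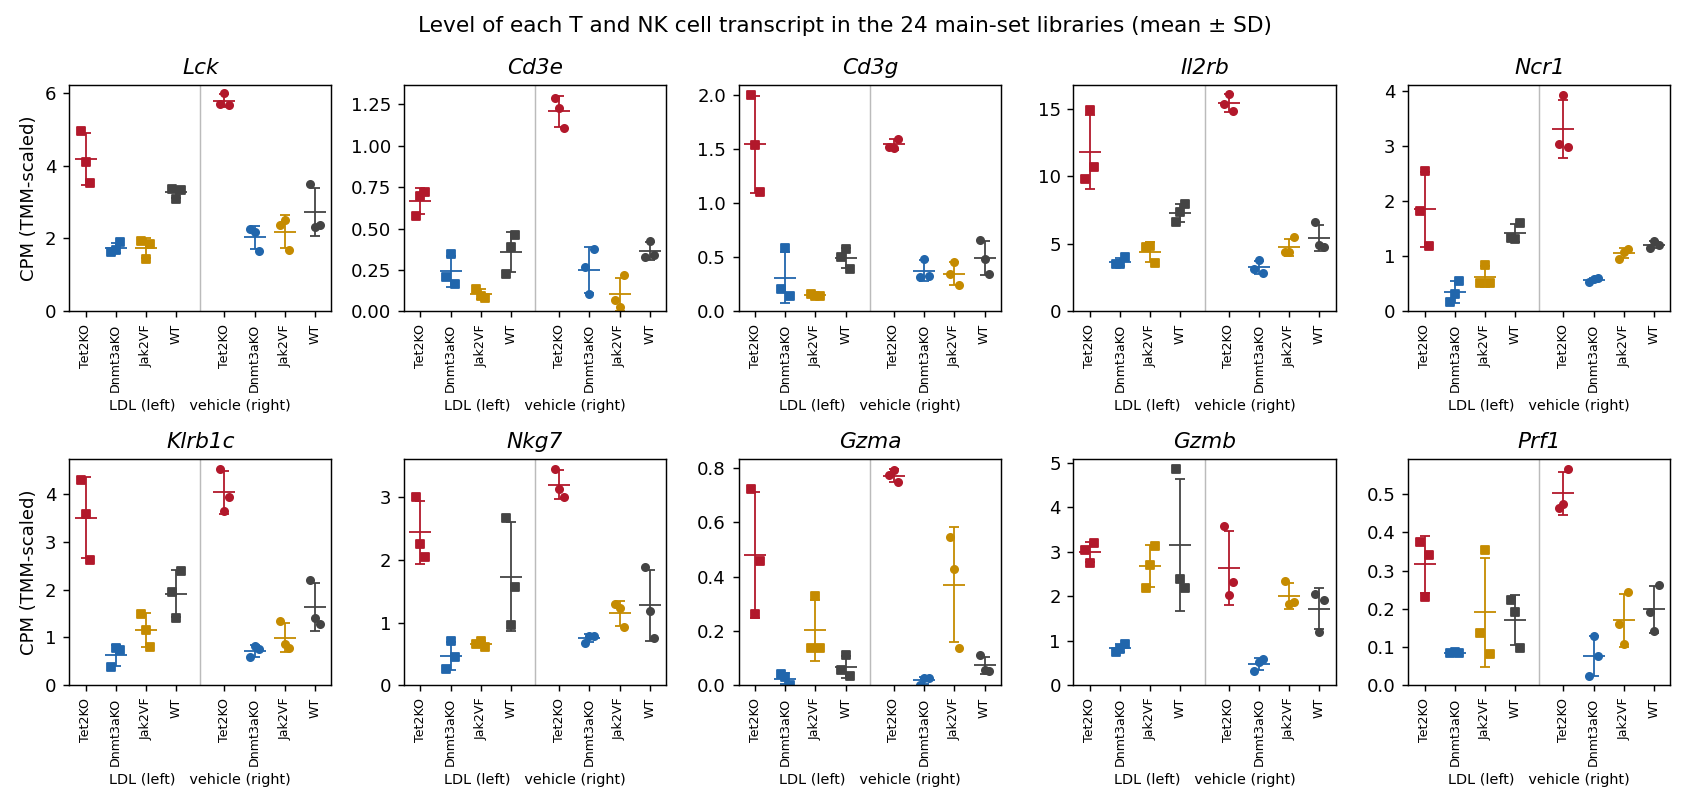
Level of each transcript in CPM (vertical axis, from 0) in the 24 libraries of the main set, with LDL at the left of each panel and vehicle at the right. Points are libraries, bars the mean ± SD of 3. Tet2KO libraries with vehicle stand above WT with vehicle for every transcript but Gzmb, and Dnmt3aKO lies below WT for Gzmb under both treatments. How many of all genes separate in this way was not counted.

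With vehicle, the T and NK cell transcripts were higher in Tet2KO than in WT and, for some of them, lower in Dnmt3aKO. In Tet2KO 8 of the 10 were called higher, with adjusted p under 0.05, whereas 2.76% of all 19444 genes tested were called higher and 2.72% lower. Their median log2 fold change was 1.39, against -0.01 over all genes. In Dnmt3aKO 4 of the 10 were called lower and none higher, against 5.51% of all genes lower and 5.58% higher, with a median log2 fold change of -0.92. Both comparisons use the same WT libraries. The 10 were chosen with earlier results of these data known, so here and below their excess over all genes is a description, not independent support. Set directly against each other, Tet2KO was above Dnmt3aKO for all 10 transcripts with vehicle (background 4.08% higher) and for all 10 with LDL (background 6.3%). Outside Tet2KO, Prf1 reached 10 counts only in WT vehicle replicate 3 and Jak2VF LDL replicate 2. It therefore passed the filter through the group where it was high. Gzma reached 10 counts only in Tet2KO and Jak2VF libraries. With LDL the calls for Cd3e and Prf1 were less firm. Cd3e lost its call without Dnmt3aKO replicate 1 or 3 or Tet2KO replicate 3, without the pair of libraries with high Gfap (adjusted p = 0.0767), with only the groups compared (adjusted p = 0.0589) and with a block by the replicate number of the descriptions (adjusted p = 0.102). Prf1 lost its call without any 1 Dnmt3aKO library, without Tet2KO replicate 1 or 3, without that pair (adjusted p = 0.0674) and with no filter on low counts (adjusted p = 0.0639).

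With LDL, fewer of the 10 were called in Tet2KO than with vehicle and more in Dnmt3aKO. In Tet2KO 3 of the 10 were called higher than in WT, Cd3g, Il2rb and Gzma, against 1.28% of all genes higher and 1.48% lower. In Dnmt3aKO 6 of the 10 were called lower than in WT, Lck, Il2rb, Ncr1, Klrb1c, Nkg7 and Gzmb, against 9.46% of all genes lower and 8.01% higher, with a median log2 fold change of -1.26. Whether LDL changed the size of a genotype difference was tested as an interaction, and none of the 10 was called for Tet2KO (all genes 0.103%) or for Dnmt3aKO (0.432%). A call under one treatment and not under the other is therefore not shown to differ between treatments. The smallest adjusted p among the 10 was 0.236, for Il2rb with Tet2KO. Over all genes, 1429 had an unadjusted p under 0.05 in the interaction with Tet2KO and 2744 in that with Dnmt3aKO.

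**Figure D2:**
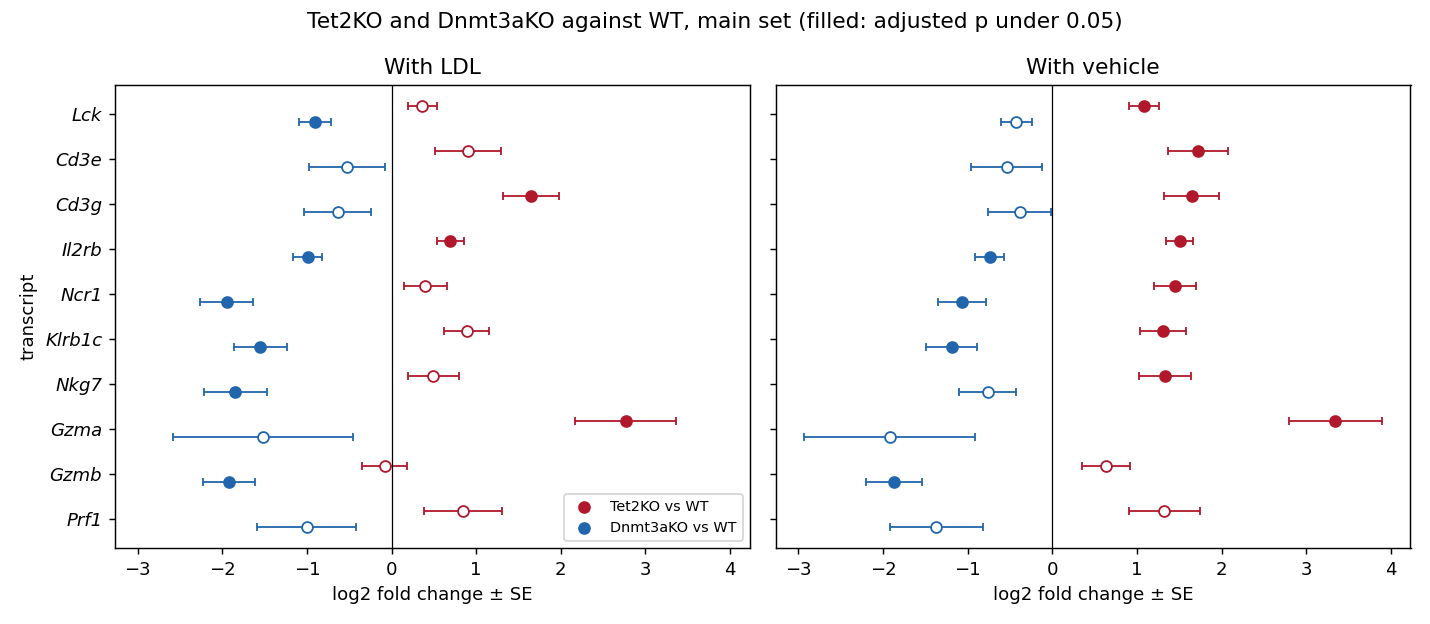
Log2 fold change ± SE (horizontal axis) of Tet2KO (red) and Dnmt3aKO (blue) against WT for each transcript in the main set, with LDL in the left panel and vehicle in the right. Filled points have an adjusted p under 0.05: 3 red and 6 blue with LDL, 8 red and 4 blue with vehicle.

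Among the T cell transcripts, Lck, the kinase that starts signalling from the T cell receptor and is also present in NK cells, had 220, 151 and 220 counts in Tet2KO with vehicle, 93, 85 and 66 in Dnmt3aKO and 128, 82 and 90 in WT. Tet2KO lay above WT in every library, with a log2 fold change of 1.08 ± 0.18 (SE, adjusted p = 0.000397). The difference of Dnmt3aKO from WT was -0.43 ± 0.18 and did not pass (adjusted p = 0.168), although the levels did not overlap. With LDL the counts were 171, 141 and 93 in Tet2KO, 39, 58 and 68 in Dnmt3aKO and 121, 112 and 102 in WT. There Dnmt3aKO was lower than WT by -0.90 ± 0.19 (adjusted p = 0.00223), and Tet2KO against WT gave 0.37 ± 0.18 (adjusted p = 0.414).

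Cd3e, a signalling chain of the receptor and a T cell marker, had 50, 31 and 43 counts in Tet2KO with vehicle, 11, 4 and 15 in Dnmt3aKO and 12, 15 and 13 in WT. The level in Tet2KO was 3.30-fold that in WT (log2 1.72 ± 0.36, adjusted p = 0.00443). With LDL the counts were 20, 24 and 19 in Tet2KO, 5, 12 and 6 in Dnmt3aKO and 8, 14 and 14 in WT, and no difference from WT passed. Cd3g, another chain of the same complex, had 59, 38 and 62 counts in Tet2KO with vehicle, 13, 19 and 13 in Dnmt3aKO and 24, 17 and 13 in WT. It rose in Tet2KO under both treatments, by 1.65 ± 0.33 with vehicle (adjusted p = 0.00282) and by 1.65 ± 0.33 with LDL (adjusted p = 0.00497), where the counts were 69, 53 and 29 in Tet2KO, 5, 20 and 5 in Dnmt3aKO and 18, 21 and 12 in WT. Neither CD3 chain was called in Dnmt3aKO against WT, with adjusted p from 0.26 to 0.664, and their levels overlapped. Without Dnmt3aKO LDL replicate 2, the library with 20 counts, Cd3g was lower in Dnmt3aKO with LDL by -1.52 (adjusted p = 0.024).

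Of the NK receptors, Ncr1, which encodes NKp46 and is among the most specific NK markers, had 118, 99 and 116 counts in Tet2KO with vehicle, 22, 23 and 24 in Dnmt3aKO and 42, 45 and 46 in WT. These groups did not overlap: Tet2KO was higher than WT by 1.45 ± 0.25 (adjusted p = 0.000771) and Dnmt3aKO lower by -1.07 ± 0.28 (adjusted p = 0.0152). With LDL the counts were 63, 88 and 31 in Tet2KO, 4, 11 and 20 in Dnmt3aKO and 48, 48 and 49 in WT. Dnmt3aKO was lower by -1.95 ± 0.31 (adjusted p = 0.000169), whereas Tet2KO with LDL ranged across WT and was not called (0.40 ± 0.26, adjusted p = 0.573).

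Klrb1c, the NK1.1 antigen, had 176, 92 and 153 counts in Tet2KO with vehicle, 24, 32 and 30 in Dnmt3aKO and 81, 50 and 49 in WT. Tet2KO was above WT (1.31 ± 0.27, adjusted p = 0.00367) and Dnmt3aKO below it (-1.19 ± 0.30, adjusted p = 0.0112). With LDL it had 149, 124 and 69 counts in Tet2KO, 9, 27 and 26 in Dnmt3aKO and 70, 51 and 73 in WT, a difference of -1.55 ± 0.31 for Dnmt3aKO (adjusted p = 0.0017) and of 0.89 ± 0.27 for Tet2KO, which did not pass (adjusted p = 0.0898) but did with DESeq2 (adjusted p = 0.0317) and with no filter on low counts (adjusted p = 0.0264). The calls for NK receptors in Dnmt3aKO with vehicle rested in part on single libraries. Without Dnmt3aKO vehicle replicate 1, both Ncr1 (adjusted p = 0.0649) and Klrb1c (adjusted p = 0.0656) missed the threshold, which left 2 of 10 transcripts lower, and so did Ncr1 without WT vehicle replicate 2 (adjusted p = 0.0527) and Klrb1c without WT vehicle replicate 1 (adjusted p = 0.0851).

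Il2rb and Nkg7 are shared by T and NK cells. Il2rb, the β chain through which interleukin 2 and interleukin 15 signal, had 594, 406 and 575 counts in Tet2KO with vehicle, 128, 148 and 114 in Dnmt3aKO and 241, 174 and 183 in WT. It had the smallest adjusted p of the 10 in Tet2KO, at 1.50 ± 0.16 (adjusted p = 3.6e-06), and fell in Dnmt3aKO by -0.74 ± 0.17 (adjusted p = 0.00508). With LDL its counts were 339, 514 and 281 in Tet2KO, 83, 120 and 144 in Dnmt3aKO and 237, 268 and 242 in WT, and both differences from WT held, at 0.69 ± 0.16 for Tet2KO (adjusted p = 0.0173) and -0.99 ± 0.17 for Dnmt3aKO (adjusted p = 0.000352). Il2rb was thus called in each of the 4 comparisons, higher in Tet2KO and lower in Dnmt3aKO.

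Nkg7, a membrane protein of cytotoxic granules, had 134, 79 and 117 counts in Tet2KO with vehicle, 28, 31 and 31 in Dnmt3aKO and 69, 42 and 29 in WT. The rise in Tet2KO was 1.33 ± 0.31 (adjusted p = 0.0107), and it missed the threshold without WT vehicle replicate 2 (adjusted p = 0.0546) or 3 (adjusted p = 0.0714). In Dnmt3aKO with vehicle it overlapped WT (adjusted p = 0.188). With LDL it had 104, 78 and 54 counts in Tet2KO, 6, 24 and 16 in Dnmt3aKO and 96, 35 and 48 in WT, and fell in Dnmt3aKO by -1.84 ± 0.37 (adjusted p = 0.00144).

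The effector transcripts did not follow one pattern. Gzma, a granzyme of NK and memory-type T cells, had 30, 20 and 29 counts in Tet2KO with vehicle, 0, 1 and 1 in Dnmt3aKO and 4, 2 and 2 in WT. Its rise of 3.35 ± 0.55 in Tet2KO was the widest of the 10 (adjusted p = 0.00044). With LDL it had 25, 9 and 12 counts in Tet2KO, 1, 1 and 0 in Dnmt3aKO and 2, 4 and 1 in WT, a rise of 2.76 ± 0.60 in Tet2KO (adjusted p = 0.0101). In WT and Dnmt3aKO the transcript was near the limit of 3 counts that a count of 0 allows, so the size of the fold is loosely set and no lower level in Dnmt3aKO was detectable at this depth.

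Gzmb, the granzyme induced in activated killer cells, had 139, 51 and 90 counts in Tet2KO with vehicle, 13, 20 and 23 in Dnmt3aKO and 75, 42 and 73 in WT. Tet2KO overlapped WT (0.63 ± 0.28, adjusted p = 0.247), while Dnmt3aKO was lower in every library, by -1.87 ± 0.33 (adjusted p = 0.000467). With LDL its counts were 105, 95 and 84 in Tet2KO, 18, 28 and 33 in Dnmt3aKO and 175, 87 and 67 in WT. Dnmt3aKO was again lower, by -1.92 ± 0.31 (adjusted p = 0.000164), and Tet2KO against WT gave -0.08 ± 0.27 (adjusted p = 0.917), a value that turned to 0.38 without WT LDL replicate 1, the library with 175 counts. Prf1, perforin, had 18, 12 and 22 counts in Tet2KO with vehicle, 1, 5 and 3 in Dnmt3aKO and 7, 5 and 10 in WT. With LDL it had 13, 8 and 9 counts in Tet2KO, 2, 3 and 3 in Dnmt3aKO and 8, 7 and 3 in WT. Its levels did not overlap between Tet2KO and WT, but the difference did not pass with vehicle (1.32 ± 0.42, adjusted p = 0.0717) or with LDL (0.84 ± 0.46, adjusted p = 0.502).

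Among the comparisons of Tet2KO and Dnmt3aKO with WT, the calls in Tet2KO with LDL changed under the most alternatives. Fitted on the 2 groups compared alone, Cd3g (adjusted p = 0.136) and Il2rb (adjusted p = 0.402) were not called, and Gzma was under the filter on low counts. Without WT LDL replicate 1 only Cd3g of the 3 stayed under the threshold (Il2rb adjusted p = 0.0882, Gzma adjusted p = 0.0529). Il2rb was also lost without Tet2KO LDL replicate 2 (adjusted p = 0.165), and Gzma without Tet2KO LDL replicate 1 (adjusted p = 0.065) or WT LDL replicate 3 (adjusted p = 0.0582). In this comparison libraries of the same number deviated together. A block by the number in the titles kept the 3 calls, and a block by the number in the descriptions lost Il2rb (adjusted p = 0.0708) and Gzma (adjusted p = 0.0747). Without the pair of libraries with high Gfap, Cd3g (adjusted p = 0.0251) and Il2rb (adjusted p = 0.0435) were called and Gzma was not (adjusted p = 0.104). The 6 falls in Dnmt3aKO with LDL passed in each of the 12 alternatives run.

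Summed by role, Ncr1 and Klrb1c together with Lck, Cd3e and Cd3g gave a rough balance between NK and T cell transcripts. The NK share of these counts was 45.3% to 47.2% in Tet2KO with vehicle, 28.2% to 36.5% in Dnmt3aKO and 42.9% to 45.5% in WT. With LDL it was 41.5% to 49.3% in Tet2KO, 21.0% to 36.8% in Dnmt3aKO and 40.2% to 48.8% in WT. The share in Dnmt3aKO was below that in WT in each library under both treatments, and no test was run on it. Some libraries overlapped within counting error (95% intervals). With vehicle, Dnmt3aKO replicate 3 had 28.7% to 44.8% and WT replicate 1 had 37.1% to 48.8%. With LDL, Dnmt3aKO replicate 3 had 28.4% to 45.9% and WT replicate 2 had 34.1% to 46.7%. Lck is also present in NK cells, so the share is not one of cells.

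LDL itself changed few of the 10. Gzmb was higher with LDL than with vehicle in WT, at 175, 87 and 67 counts with LDL against 75, 42 and 73 with vehicle (0.88 ± 0.28, adjusted p = 0.0368, background 6.67% higher). That call was lost without WT LDL replicate 1 (0.43, adjusted p = 0.371), without WT vehicle replicate 2 (adjusted p = 0.18) or without WT vehicle replicate 3 (adjusted p = 0.0686), and without WT vehicle replicate 1 there were 2 calls. Ncr1 was lower with LDL in Tet2KO, at 63, 88 and 31 counts with LDL against 118, 99 and 116 with vehicle (-0.82 ± 0.24, adjusted p = 0.0231, background 8.21% lower). It missed the threshold without Tet2KO LDL replicate 3 (adjusted p = 0.113) or 1 (adjusted p = 0.0716), or without Tet2KO vehicle replicate 2 (adjusted p = 0.108), or without the pair of libraries with high Gfap (adjusted p = 0.115), and without Tet2KO LDL replicate 2 there were 2 calls. In Dnmt3aKO and Jak2VF none of the 10 was called with LDL by edgeR, where 15.4% and 18.2% of all genes were, and 5147 and 6431 genes had an unadjusted p under 0.05. In Jak2VF 2 were called without vehicle replicate 3 and 1 without LDL replicate 2.

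Jak2VF, the third mutant genotype, gives a further reference for the 10. With vehicle Gzma was higher than in WT, with 24, 16 and 5 counts in Jak2VF against 4, 2 and 2 in WT (2.32 ± 0.59, adjusted p = 0.0143, background 4.29% higher). Cd3e was lower, with 3, 1 and 8 counts in Jak2VF against 12, 15 and 13 in WT (-1.80 ± 0.49, adjusted p = 0.0227, background 5.26% lower). Both were lost without Jak2VF vehicle replicate 1, or without WT vehicle replicate 2 or 3, and Cd3e also without Jak2VF vehicle replicate 2, while without Jak2VF vehicle replicate 3 its log2 fold change was -2.80. With LDL 6 of the 10 were lower in Jak2VF, Lck, Cd3e, Cd3g, Il2rb, Ncr1 and Nkg7, against 5.75% of all genes. That count fell to 2 without Jak2VF LDL replicate 1 and to 1 without Jak2VF LDL replicate 3, and was 0 with only the groups compared.

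The wider T and NK cell programme was read from lists of other genes, also chosen with earlier results of these data known. Of 21 other T cell genes, 12 were higher in Tet2KO with vehicle and none lower, with a median log2 fold change of 1.04. Over all genes 2.76% were higher and 2.72% lower. Cd8a, the co-receptor of killer T cells, had a mean of 1.78 ± 0.16 CPM in Tet2KO and 0.471 ± 0.066 CPM in WT (SD, n = 3 each). Cd4, the helper T cell co-receptor, averaged 45.2 ± 1.9 CPM in Tet2KO against 23.6 ± 1.3 CPM in WT, and Tcf7, a transcription factor of T and innate lymphoid cells, 11.9 ± 0.5 against 5.72 ± 0.69 CPM. Cd3e averaged 0.364 CPM in WT with vehicle, far below Cd4, and whether Cd4 came from T cells was not tested. With LDL 2 of the 21 were higher in Tet2KO (all genes 1.28%), Tcf7 (0.64 ± 0.12, adjusted p = 0.00243) and Cd8a (1.34 ± 0.32, adjusted p = 0.022).

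In Dnmt3aKO with vehicle few of the 21 T cell genes were called, at shares near those of all genes (5.58% higher and 5.51% lower), and their median log2 fold change was 0.10. Those called were 2 higher, Cd4 (0.73 ± 0.08, adjusted p = 2.75e-06) and the kinase Zap70 (0.86 ± 0.26, adjusted p = 0.034), and 2 lower, the receptor β chain segment Trbc1 (-1.49 ± 0.41, adjusted p = 0.0185) and Thy1 (-0.43 ± 0.12, adjusted p = 0.0244), which stromal cells also express. With LDL 1 was higher and 5 lower of 21, against 8.01% and 9.46% of all genes. The lower ones included Tcf7 (-0.97 ± 0.13, adjusted p = 1.33e-05) and the receptor chain segments Trac (-0.99 ± 0.21, adjusted p = 0.00263) and Trbc1 (-1.98 ± 0.44, adjusted p = 0.00402).

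NK cell genes were higher in Tet2KO and lower in Dnmt3aKO, each against the same WT libraries. Of the 14 others tested, 10 were higher in Tet2KO with vehicle (all genes 2.76%) and 6 with LDL (1.28%), with none lower. In Dnmt3aKO 8 were lower with vehicle (all genes 5.51%) and 8 with LDL (9.46%), with none higher. The activating receptor gene Klrk1 (NKG2D) averaged 5.09 ± 0.82 CPM in Tet2KO, 0.774 ± 0.053 in Dnmt3aKO and 1.77 ± 0.36 in WT with vehicle. Its partner gene Klrd1 (CD94) averaged 6.55 ± 0.41 CPM in Tet2KO, 0.873 ± 0.094 in Dnmt3aKO and 2.30 ± 0.64 in WT. The receptor gene Klrc1 (NKG2A) and the kinase gene Txk were lower in Dnmt3aKO under both treatments, Klrc1 by -1.69 ± 0.34 with vehicle and by -2.26 ± 0.37 with LDL.

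Other granule and effector genes separated the genotypes differently. In Tet2KO with vehicle 1 of 11 was higher (all genes 2.76%), Ctsw, a cathepsin of killer cells (8.62 ± 0.49 CPM against 3.80 ± 1.31 CPM in WT). With LDL none was called by edgeR. In Dnmt3aKO 6 of 11 were lower with vehicle (all genes 5.51%) and 6 with LDL (all genes 9.46%). These included the granzyme gene Gzmd, at 1.19 ± 0.33 CPM in Dnmt3aKO against 5.15 ± 1.29 CPM in WT with vehicle, and Gzme, at 8.86 ± 0.23 against 21.4 ± 2.6 CPM. The serpin genes Serpinb9b (-0.92 ± 0.15) and Serpinb6b (-0.54 ± 0.10) fell with them. Gzmc, Gzmd, Gzme, Gzmf and Gzmg are near copies of each other, so counts of a single one are uncertain. Of 9 genes of the interleukin 2 and 15 system, 1 was higher in Tet2KO with vehicle (all genes 2.76%) and none with LDL (1.28%). In Dnmt3aKO 2 were higher with vehicle (all genes 5.58%), and with LDL 2 were higher (8.01%) and 2 lower (9.46%). Il2ra, the α chain of the interleukin 2 receptor, was higher in Tet2KO with vehicle (0.80 ± 0.21, adjusted p = 0.0247). In Dnmt3aKO it was higher under both treatments (0.84 ± 0.21 with vehicle and 1.02 ± 0.20 with LDL), whereas Il2rb fell in Dnmt3aKO. Il7r, the interleukin 7 receptor, was also higher in Dnmt3aKO, and with LDL the shared γ chain gene Il2rg and the kinase gene Jak3 were lower.

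**Figure D3:**
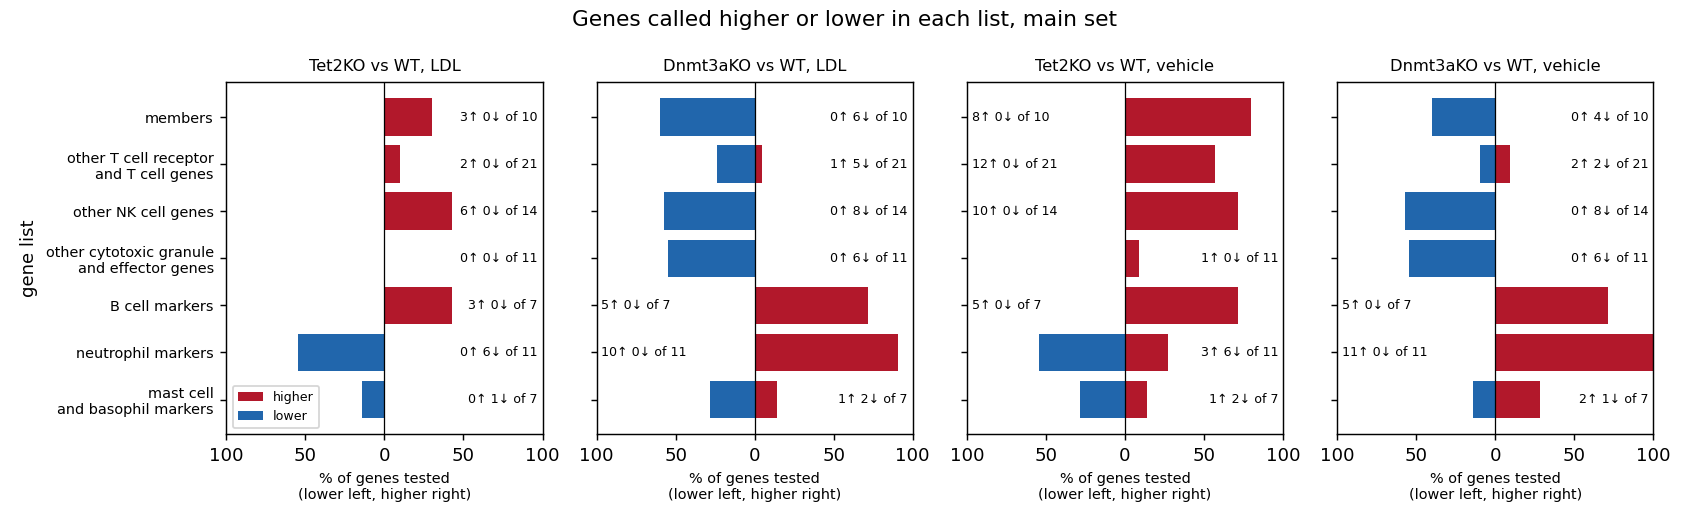
Share of the genes tested in each list that were called higher (right, red) or lower (left, blue), in percent, for Tet2KO and Dnmt3aKO against WT with LDL (left panels) and vehicle (right panels). NK cell genes are higher in Tet2KO (6 and 10 of 14) and lower in Dnmt3aKO (8 and 8 of 14), whereas B cell markers are higher in both. Over all genes the shares ran from 1.28% to 9.46%.

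Markers of some other cells moved with the same comparisons. Over all genes with vehicle, 2.76% were higher and 2.72% lower in Tet2KO, and 5.58% higher and 5.51% lower in Dnmt3aKO. With LDL 1.28% were higher and 1.48% lower in Tet2KO, and 8.01% higher and 9.46% lower in Dnmt3aKO. B cell markers were higher in both genotypes, 5 of 7 in Tet2KO and 5 of 7 in Dnmt3aKO with vehicle, and their 8 genes summed to 47.1 to 56.8 CPM in Tet2KO, 54.9 to 61.0 CPM in Dnmt3aKO and 35.7 to 40.3 CPM in WT, with none at 0 in any library. Neutrophil markers went 3 higher and 6 lower of 11 in Tet2KO and 11 of 11 higher in Dnmt3aKO with vehicle, and summed to 78.8 to 113 CPM in Tet2KO, 715 to 768 CPM in Dnmt3aKO and 204 to 268 CPM in WT, again with none at 0. With LDL 3 B cell markers of 7 were higher in Tet2KO and 5 in Dnmt3aKO, and 6 neutrophil markers of 11 were lower in Tet2KO and 10 higher in Dnmt3aKO. Mast cell and basophil markers had 1 higher and 2 lower of 7 in Tet2KO and 2 higher and 1 lower in Dnmt3aKO with vehicle. With LDL they had 1 lower in Tet2KO, and 1 higher and 2 lower in Dnmt3aKO. Of 5 plasmacytoid dendritic cell markers tested, 1 was higher in each genotype with vehicle, and with LDL 1 in Dnmt3aKO only. With vehicle the 7 in that list summed to 169 to 175 CPM in Tet2KO, 149 to 161 CPM in Dnmt3aKO and 143 to 168 CPM in WT. Of 4 progenitor markers, 2 were higher in Tet2KO with vehicle, the growth factor receptor genes Kit (1.30 ± 0.19, adjusted p = 0.000123) and Flt3 (1.59 ± 0.35, adjusted p = 0.00662). In Dnmt3aKO 1 of the 4 was higher with vehicle. With LDL 1 was higher in Tet2KO, and 1 higher and 1 lower in Dnmt3aKO. With vehicle the 4 summed to 28.0 to 29.2 CPM in Tet2KO, 15.7 to 18.9 CPM in Dnmt3aKO and 18.3 to 21.4 CPM in WT. None of them was at 0. In Dnmt3aKO with vehicle B cell markers were thus higher while NK cell genes were lower, and Lck, Cd3e and Cd3g were not called. The part of these other cells in the T and NK cell values was not tested.

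Across the 24 libraries, the 2 genes most like each transcript were taken by Spearman's rho of log2 CPM, given as a description, since the libraries share genotype groups. Nkg7 was most like Ctsw (0.95) and Tcf7 (0.94), Ncr1 most like Tcf7 (0.93) and the NK receptor gene Klri2 (0.93), and Lck most like Klrc1 (0.93) and Gimap3 (0.92). Il2rb and Klrb1c both had Apol7e first (0.93 and 0.95). Klrc1 was next for Il2rb (0.92) and Apol7b next for Klrb1c (0.94). Cd3g was most like Gimap5 (0.91) and H2-Q7 (0.90), and Cd3e most like Arhgap4 (0.89) and Cxcr6 (0.88). Prf1 was most like Gm30948 (0.87) and the NK receptor gene Klra7 (0.85). Gzma was most like Cd55 and A730020M07Rik (0.88 each), and Gzmb like Tle1 and Asb2 (0.85 each). Among the 10 themselves rho ran from 0.27 for Cd3e with Gzmb to 0.91 for Il2rb with Klrb1c.

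Batch 1 held far fewer of these transcripts. The 9 with a row summed to 73 to 239 counts in Tet2KO with vehicle and 30 to 49 in WT, and to 104 and 123 counts in Tet2KO with LDL and 25 and 60 in WT. Scaled to depth, these sums were 2.56 to 8.14 CPM in Tet2KO with vehicle and 1.83 to 2.33 CPM in WT. With LDL they were 4.05 to 5.05 and 1.35 to 1.72 CPM. Gzmb gave 192 of the 239 counts. With vehicle, Lck, Cd3e and Cd3g together overlapped WT, at 0.954 to 1.96 against 0.914 to 1.05 CPM. Il2rb and Nkg7 together overlapped too (0.477 to 0.653 against 0.487 to 0.523 CPM). Ncr1 and Klrb1c together were lower (0.136 to 0.154 against 0.183 to 0.666 CPM, at most 14 counts). No transcript was called by edgeR with vehicle or LDL, where 1.89% and 0.536% of 15481 genes were, and 2163 and 1844 genes had an unadjusted p under 0.05. Of the 3 that could be tested, Lck had 33, 43 and 23 counts in Tet2KO with vehicle against 15, 21 and 22 in WT (adjusted p = 0.865), and Il2rb had 14, 11 and 14 against 6, 9 and 11 (adjusted p = 0.981). Both overlapped once scaled to depth. With LDL, Lck had 51 and 19 counts in Tet2KO against 16 and 29 in WT (adjusted p = 0.625), and Il2rb 14 and 11 against 5 and 11 (adjusted p = 0.441), where Tet2KO lay above WT once scaled. Of the other T cell genes, 2 of 10 tested were higher in Tet2KO with vehicle, Cd4 (1.23 ± 0.23, adjusted p = 0.0334) and the co-stimulatory receptor gene Cd28 (0.73 ± 0.15, adjusted p = 0.0404), with a median log2 fold change of 0.90. Their 21 genes summed to 149 to 187 CPM in Tet2KO and 92.7 to 104 CPM in WT. With LDL 1 was higher, Cd4 (1.73 ± 0.29, adjusted p = 0.0406). Cd3e and Cd3g were at 0 counts in each WT library of batch 1, and whether these other T cell genes were read from T cells was not tested. Of 4 other NK cell genes tested none was called by edgeR under either treatment. Progenitor markers summed to 14.9 to 23.2 CPM in Tet2KO and 8.23 to 12.3 CPM in WT with vehicle, and their part in these values was not tested.

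Gzmb was the only transcript with a wide gap in batch 1. It passed the filter on low counts through the Tet2KO libraries, where it was high. Of the WT libraries only LDL replicate 2, with 13 counts, reached the minimum count of that filter. Gzmb had 17, 25 and 192 counts in Tet2KO with vehicle against 4, 1 and 2 in WT. Its log2 fold change was 4.40 ± 1.20 (adjusted p = 0.126). DESeq2 called it (adjusted p = 0.00142). Without Tet2KO replicate 3, the library with 192 counts, the value was 2.61 (adjusted p = 0.252). With LDL the counts were 24 and 86 in Tet2KO against 1 and 13 in WT (3.33 ± 1.29, adjusted p = 0.371), and without Tet2KO replicate 2 the value was 2.08 (adjusted p = 1). The stromal transcripts summed to 592, 699 and 3272 CPM in the 3 Tet2KO libraries with vehicle and 677 and 3033 CPM in those with LDL, against 385 to 685 CPM in WT, so the 2 libraries with most Gzmb also had most stromal transcripts, whose part in the result was not tested.

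**Figure D4:**
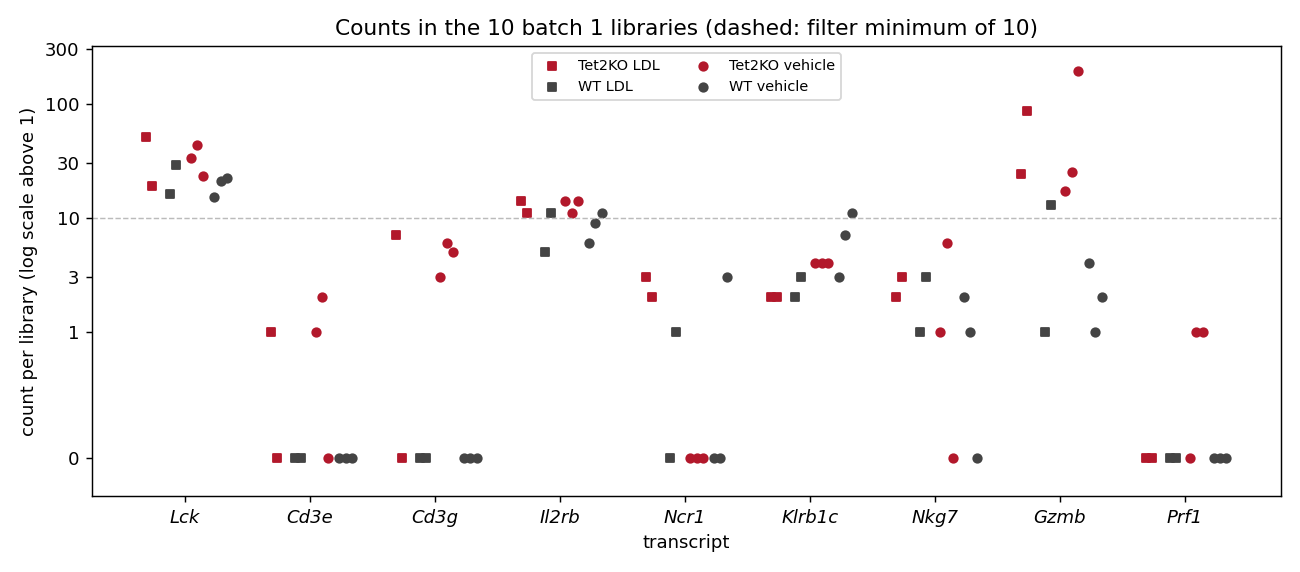
Count of each transcript in the 10 batch 1 libraries (vertical axis, log scale above 1), Tet2KO in red and WT in grey, squares with LDL and circles with vehicle. Gzmb reaches 192 counts in a Tet2KO library, and Cd3e, Cd3g and Prf1 are at 0 in each WT library.

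The 6 transcripts under the filter in batch 1 are given as counts. Cd3g had 3, 6 and 5 counts in Tet2KO with vehicle and 0 in each WT library, and 7 and 0 in Tet2KO with LDL against 0 and 0. Cd3e had 1, 2 and 0 counts in Tet2KO with vehicle and Prf1 0, 1 and 1, with 0 in each WT library. Ncr1 had 0 counts in each Tet2KO library with vehicle and 0, 0 and 3 in WT, Nkg7 had 1, 6 and 0 against 2, 1 and 0, and Klrb1c 4, 4 and 4 against 3, 7 and 11. With LDL Ncr1 had 3 and 2 counts in Tet2KO against 0 and 1 in WT, Nkg7 2 and 3 against 1 and 3, and Klrb1c 2 and 2 against 2 and 3. At a count of 0, up to 3 counts are allowed by counting error alone, so differences of this size were not detectable at this depth. For Cd3g all 3 Tet2KO libraries with vehicle had at least 3 counts, but replicate 1, at 3, did not exceed this limit. The WT libraries with vehicle were also shallower, with totals of 17167691 to 21409092 against 26121570 to 27781574 in Tet2KO. A limit of 3 counts therefore stands for a higher level in WT, and Cd3g was not tested. Ncr1 and Klrb1c were thus not higher in Tet2KO with vehicle in batch 1, at counts too low to test.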

How the data were processed

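RNA sequencing libraries of the main set (24) and batch 1 (10) were fitted apart. The authors deposited counts per gene as integers, read as unscaled although their names say normalized, since totals differ 1.82-fold and 2.93-fold within the sets. The build was mm10, per the submitters' processing notes. The sources used here name no aligner or counter, and the labels name both ribosomal depletion and poly-A selection. Counts were tested with edgeR 4.0.16 (R 4.3.3) quasi-likelihood tests after TMM scaling, with 1 mean per group, a spread shared by the groups of a set, two-sided p-values, and Benjamini-Hochberg adjustment over all 19444 or 15481 genes with at least 10 counts in 3 (batch 1: 2) libraries. The test was checked on simulated data. Alternatives were DESeq2 1.42.0, no filter, no TMM, only the groups compared, a replicate block and leaving out libraries. Replicate numbers were taken to pair libraries where at least 3 pairs shared numbers and each pair's deviations correlated above 0.1, which held for Tet2KO against WT with LDL by the number in the titles (correlations of deviations from 0.336 to 0.544), and a block on that number left 3 members called. Members and gene lists were chosen with earlier results of these data known. All 10 members are named, and of other lists up to 4 called genes by smallest adjusted p (1 is not reported here); the stromal genes, Gfap, and Cd4 and Tcf7 in further comparisons, were named beside results they touch. RUNX motifs, role sums and the order of levels were chosen after values were seen. Coordinates are those of GENCODE M21 on GRCm38. Intervals and floors cover counting error only.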

Additional observations from a re-analysis of the deposited data

Results flagged for a closer look

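Some transcripts separated in opposite directions under the same contrast. With LDL against vehicle, Ncr1 was lower in every Tet2KO library (mean difference -1.47 CPM) and higher in every WT library (0.213 CPM), and the interaction of Tet2KO with LDL, -1.05 ± 0.36 on the log2 scale, did not pass (adjusted p = 0.385, edgeR). Ncr1 was also lower with LDL in every Jak2VF library (-0.426 CPM), a difference from WT that was not tested.

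Between the 2 sets the differences were not tested, since their tables were not joined. Ncr1 with LDL in Tet2KO was lower in the main set (-1.47 CPM) and higher in batch 1 (0.0995 CPM, 2 libraries of 2 and 3 counts). Il2rb with LDL in WT was higher in the main set (1.87 CPM) and lower in batch 1 (-0.15 CPM). Klrb1c with vehicle was higher in Tet2KO than in WT in the main set (2.41 CPM) and lower in batch 1 (-0.209 CPM), where it had at most 11 counts in a library.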

How the results depend on the processing

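Of 912 values under alternatives for single transcripts, 837 kept their direction and their side of the threshold, 66 lost the call, 5 gained one and 4 changed sign. Alternatives in which a transcript fell under the filter gave no value and are not among the 912. Gzma in Tet2KO against WT with LDL, fitted on only those groups, is such a case. The sign changes were in values that were not called: Gzmb in Tet2KO against WT with LDL (log2 fold change from -0.33 to 0.38 over the libraries left out), and in batch 1 Il2rb with vehicle (-0.069 to 0.18), Lck with vehicle (-0.052 to 0.49) and Lck with LDL (-0.10 to 1.24). Fitted on only the groups compared, the transcripts called were 0 for Tet2KO against WT with LDL (3 in the shared fit), 0 for Jak2VF against WT with vehicle (2) and with LDL (6), 0 for LDL in WT (1) and in Tet2KO (1), and 1 for LDL in Dnmt3aKO (0). LDL in Tet2KO gave 2 with DESeq2, 2 without TMM and 0 without the pair of libraries with high Gfap. DESeq2 called 1 transcript in Tet2KO against WT with vehicle in batch 1. With a replicate block by title number LDL gave 2 calls in Tet2KO and 1 in Jak2VF; with a block by description number, Tet2KO against WT with LDL gave 1 and LDL in Tet2KO gave 0. The block left the other counts within 1.5 times. The cause of these changes was not tested. Leaving out 1 library at a time gave 7 to 8 calls for Tet2KO and 2 to 4 for Dnmt3aKO with vehicle, 1 to 3 and 6 to 7 with LDL, 10 to 10 and 8 to 10 for Tet2KO against Dnmt3aKO with vehicle and LDL, 0 to 2 and 1 to 7 for Jak2VF, and with LDL against vehicle 0 to 2 in WT, Tet2KO and Jak2VF and 0 to 0 in Dnmt3aKO. Interactions and batch 1 stayed at 0. Counts near 10 limit Cd3e, Gzma and Prf1, and most members in batch 1.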
